A study of Rattus norvegicus with 8 samples.

Results

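Cadherins, Eph receptors and neural adhesion molecules hold embryonic brain cells together, keep neighbouring territories apart and guide growing axons. The 6 genes described here are Cdh2 and Cdh22, both cadherins, L1cam and Ncam1, both immunoglobulin-type adhesion molecules of neurons, and Epha7 and Ephb3, both receptor tyrosine kinases of the Eph family. They were taken by symbol: every probe set of the array whose only gene symbol in the platform annotation was one of the 6. This gave 6 of the 4736 genes so named on the array, on 9 of its 8740 non-control probe sets. Of the 9, 7 passed a filter on low values and entered the tests, which covered 5881 probe sets.

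Classical cadherins bind cadherins of the facing cell in the presence of calcium and are tied to the actin cytoskeleton through catenins. Ncam1 and L1cam bind their own kind on other membranes and promote neurite growth and axon bundling. Eph receptors bind membrane-anchored ephrins on neighbouring cells, and signals usually run in both cells and lead to repulsion or sorting of cell groups. In the developing brain these families mark boundaries between regions, and Pax6, a paired-domain transcription factor, is known to be required for adhesion differences at forebrain boundaries.

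Transcripts were measured on Affymetrix rat arrays of the U34 set in rat embryos at E12.5, of 2 genotypes called wild-type and Pax6 homozygous in the labels, which do not name the allele. No other allele or agent is given for either genotype, and neither is the number of embryos behind an array. The head was dissected into a rostral part, here forebrain, that included the midbrain with the eye and nose primordia, and a caudal part, here hindbrain, that included the pharyngeal arches. Each of the 4 combinations was read on 2 arrays, and the small number of arrays limits the precision of every value. Separate animals or litters behind the 2 arrays of a group are not stated, so the p-values speak of array-to-array spread alone, which may be technical.

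Markers of the labelled parts were detected only in part. Of 9 forebrain and midbrain genes 5 were above noise on both wild-type forebrain arrays, and their summed intensity (negative values as 0) was 15924 to 16404 there and 5697 on both wild-type hindbrain arrays. Of 10 hindbrain genes 5 were above noise on both wild-type hindbrain arrays, with sums of 8963 to 9155 there and 1926 to 2145 in wild-type forebrain. Lhx2, a LIM homeobox gene of forebrain and eye, had an intensity of 8482 ± 296 (SD, n = 2 arrays, as for all group values) in wild-type forebrain and 1660.1 ± 199 in wild-type hindbrain. Hoxa5, a homeobox gene of hindbrain and more caudal levels, was at 2382 ± 483 in wild-type hindbrain and above noise on no forebrain array. The noise level of an array is here the size of its 5th percentile, between 243 and 620 over the 8 arrays. Otx1, Lhx5, Hoxb7, Hoxc4 and Hoxc8 were above noise on no array. Neurod2, listed with the forebrain markers, was above noise on both hindbrain arrays and on no forebrain array of the wild-type, and Nr4a2 had like levels in both parts (1017 ± 19.2 and 1065 ± 11.5). Pax6 was read by 1 probe set whose position on the transcript the labels do not give, and its level checks nothing about the genotype. Its log2 genotype change was 0.30 ± 0.42 (limma standard error) in forebrain and 0.80 ± 0.42 in hindbrain, where both Pax6 homozygous arrays lay higher (1153 ± 58.6 against 679 ± 209), and neither passed (adjusted p = 1 and 0.989).

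Upstream genomic sequence is shown for the members found in a RefSeq promoter table, whatever their values on the arrays. Of the 6 genes 3 matched by symbol. The stretches run 5′ to 3′ on the strand of the gene, and lie outside the annotated gene in build GRCr8. Capitals mark the homeodomain core motif TAAT on either strand, which only the Ephb3 stretch holds. They are upstream of Cdh22 on the minus strand (chr3:174389941-174390142), of Epha7 on the plus strand (chr5:47771643-47771775) and of Ephb3 on the minus strand (chr11:93363776-93364025).
Cdh22: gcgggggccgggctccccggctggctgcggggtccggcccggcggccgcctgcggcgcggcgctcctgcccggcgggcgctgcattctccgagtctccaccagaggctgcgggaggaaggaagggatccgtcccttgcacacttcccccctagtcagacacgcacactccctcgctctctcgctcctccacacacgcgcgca
Epha7: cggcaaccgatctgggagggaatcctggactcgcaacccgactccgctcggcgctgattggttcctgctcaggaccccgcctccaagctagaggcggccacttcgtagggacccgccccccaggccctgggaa
Ephb3: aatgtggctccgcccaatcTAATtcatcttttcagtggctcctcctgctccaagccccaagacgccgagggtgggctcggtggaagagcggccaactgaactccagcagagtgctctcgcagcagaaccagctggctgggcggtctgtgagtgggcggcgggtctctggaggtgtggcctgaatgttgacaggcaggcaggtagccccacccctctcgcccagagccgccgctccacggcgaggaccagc

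Motifs were counted on both strands in the whole window of 300 bases, which runs from 250 before to 50 after the start. TAAT occurred 0 times in the Cdh22 window, 2 times in the Epha7 window and 1 time in the Ephb3 window, with both Epha7 matches outside the stretch shown, and 60.6% of 33465 such windows in the table held it. The GC box core GGGCGG, whose matches cannot overlap those of TAAT, occurred 0, 2 and 3 times in the same windows, and 33.1% of all windows held it. G and C made up 76% of the Cdh22 window, 66.7% of the Epha7 window and 63.7% of the Ephb3 window, against a median of 51.7%. These matches describe letters only, and no binding was measured.

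The question put to the 6 genes was whether the Pax6 genotype changed them in the same way in forebrain and hindbrain. No member passed the test in either part or in the test of the difference between parts (limma, Benjamini-Hochberg adjusted over 5881 probe sets, threshold 0.05). In forebrain 0.017% of all tested probe sets passed, in hindbrain also 0.017%, and in the difference between parts 0%. At an unadjusted p under 0.05 stood 1 of 7 member probe sets in forebrain and 1 in the difference between parts, both of Cdh22, and 0 in hindbrain. Of all 5881, 172, 112 and 264 stood there. Members read higher in the Pax6 homozygous forebrain than in wild-type for 6 of 7 probe sets (51.2% of all tested) and in hindbrain for 3 of 7 (54.3%). The genotype change was more positive in forebrain than in hindbrain for 7 of 7 probe sets, as it was for 48% of all tested. For L1cam and Ephb3 this order turned under a floor at the pooled median. Among the members, Cdh22 in forebrain had the smallest unadjusted p, and Ncam1 had the widest log2 difference between forebrain and hindbrain over both genotypes.

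**Figure D1:**
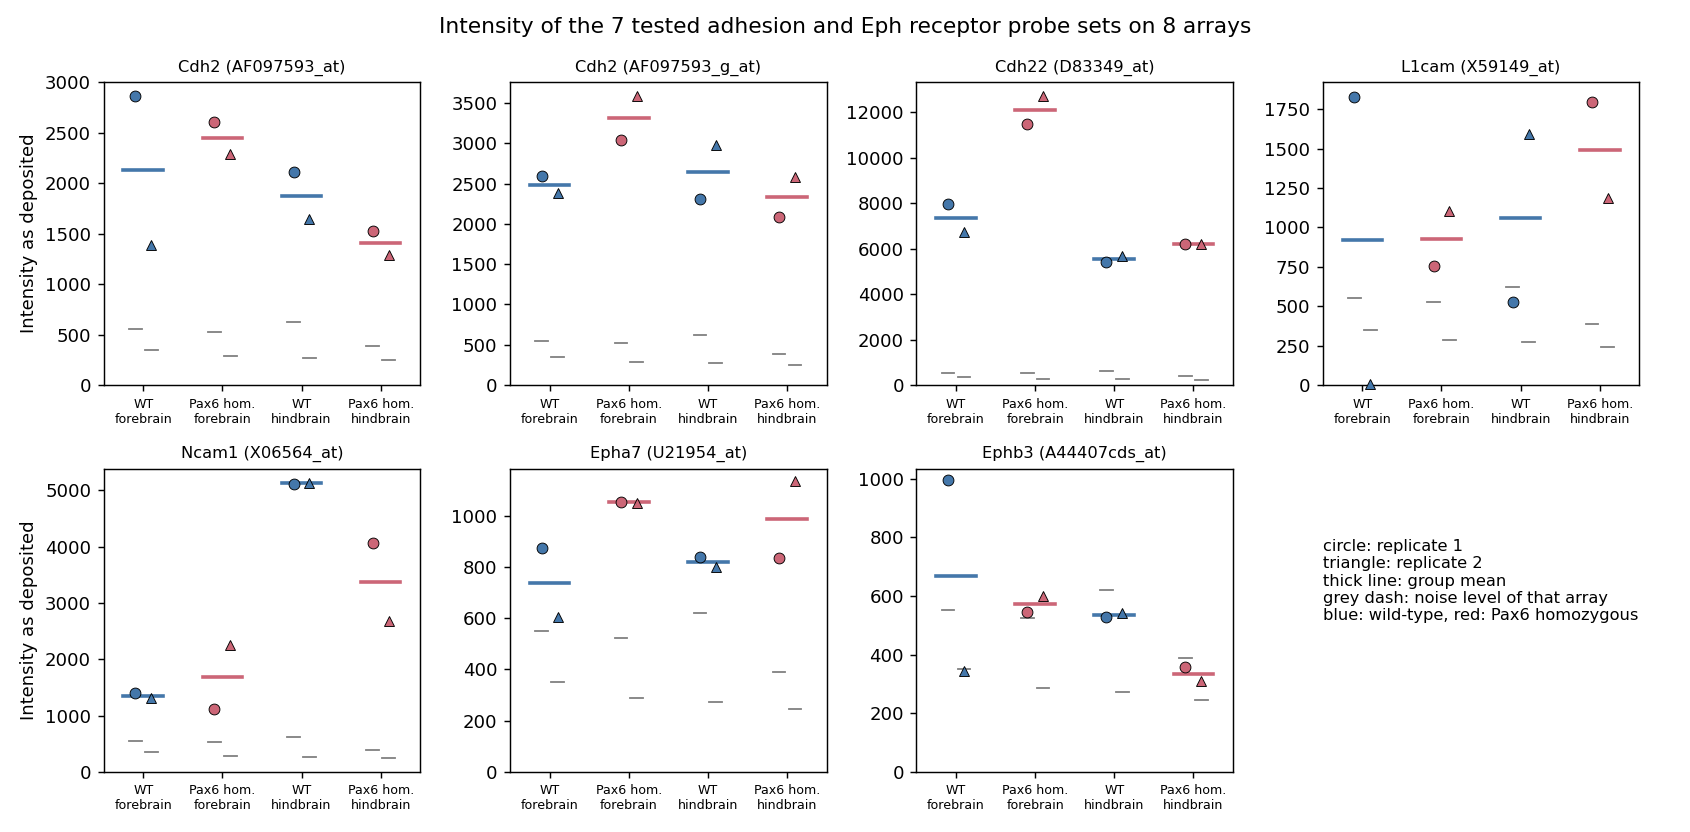
Intensity as deposited (y axis, linear) of the 7 tested probe sets in the 4 groups. Circles are replicate 1, triangles replicate 2, thick lines group means and grey dashes the noise level of each array. Cdh22 stood highest in Pax6 homozygous forebrain (11473 and 12695), Ncam1 highest in wild-type hindbrain (5123 and 5134), and L1cam ranged from 6.5 to 1830.0 within wild-type forebrain.

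Cdh22, also called PB-cadherin, is a cadherin first described in pituitary and brain. Its bright probe set, D83349_at, had intensities of 7986 and 6750.4 on the wild-type forebrain arrays and of 11473 and 12695 on the Pax6 homozygous forebrain arrays. In hindbrain it had 5432 and 5688 in wild-type and 6223 and 6203 in Pax6 homozygous embryos. The Pax6 homozygous arrays lay above the wild-type arrays in both parts, by a wide margin in forebrain and a narrow one in hindbrain. The means were 7368 ± 874 and 12084 ± 864 in forebrain, a ratio of 1.64, and 5560.3 ± 181 and 6213 ± 13.9 in hindbrain, a ratio of 1.12.

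On the log2 scale the Cdh22 genotype change was 0.72 ± 0.17 in forebrain (unadjusted p = 0.00209, the 13th smallest of 5881, adjusted p = 0.902 in limma) and 0.16 ± 0.17 in hindbrain (adjusted p = 0.991). The forebrain change exceeded the hindbrain change by 0.56 ± 0.23, with a 95% interval from 0.02 to 1.09 before adjustment (unadjusted p = 0.0424, adjusted p = 1). Over both parts the change was 0.44 ± 0.12 (adjusted p = 0.801), where 0.034% of all tested probe sets passed. The second Cdh22 probe set, D83348_at, was above noise on no array, with values from -38.0 to 208, and was not tested, so the Cdh22 readings rest on 1 probe set.

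Cdh2, N-cadherin, is the main classical cadherin of the neuroepithelium. Both of its probe sets were designed on the same sequence record and are not independent. AF097593_g_at read 2590 and 2381 on the wild-type forebrain arrays and 3048 and 3591 on the mutant ones, which both lay higher. In hindbrain it had 2307 and 2984 in wild-type and 2091 and 2578 in Pax6 homozygous embryos, and the arrays overlapped. AF097593_at had 2869 and 1391 in wild-type forebrain, 2607 and 2287 in the Pax6 homozygous forebrain, 2110 and 1646 in wild-type hindbrain and 1522 and 1293 in Pax6 homozygous hindbrain. Its forebrain arrays overlapped, and its Pax6 homozygous hindbrain arrays lay below the wild-type ones.

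The Cdh2 log2 genotype changes of the probe sets AF097593_g_at and AF097593_at were 0.41 ± 0.24 and 0.29 ± 0.36 in forebrain and -0.18 ± 0.24 and -0.41 ± 0.36 in hindbrain (every adjusted p at or above 0.991). Both probe sets thus had a positive estimate in forebrain and a negative one in hindbrain. The differences between parts were 0.59 ± 0.34, with a 95% interval from -0.19 to 1.37, and 0.70 ± 0.51, with an interval from -0.45 to 1.85. Neither differed beyond the spread between arrays. Without wild-type forebrain replicate 2 the forebrain change of AF097593_at turned negative (-0.23), and without wild-type hindbrain replicate 2 the hindbrain change of AF097593_g_at was 0.0088.

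**Figure D2:**
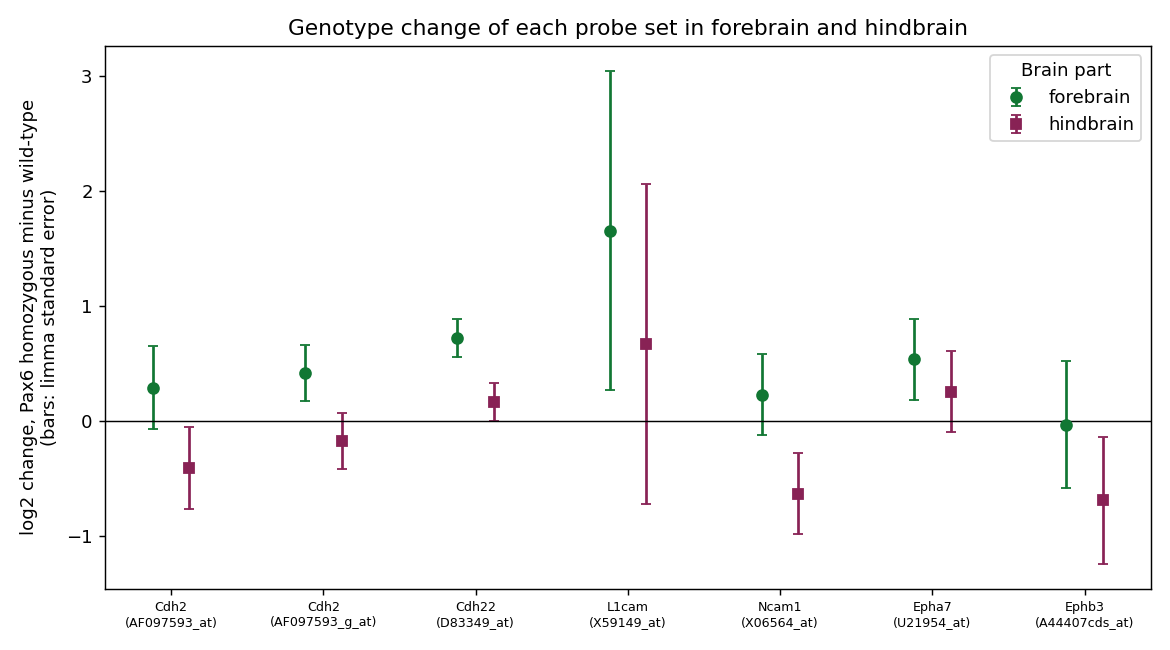
Log2 genotype change, Pax6 homozygous minus wild-type (y axis), of each tested probe set in forebrain (circles) and hindbrain (squares), with limma standard errors as bars. For each of the 7 probe sets the forebrain point lies above the hindbrain point, and 0 of the 14 changes passed the test. For L1cam and Ephb3 this order turns when the floor is the pooled median.

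Ncam1, the neural cell adhesion molecule, appears on neurons as they leave the cell cycle. Its probe set X06564_at had intensities of 1402 and 1305 in wild-type forebrain and of 1116 and 2247 in the Pax6 homozygous forebrain. In hindbrain it had 5123 and 5134 in wild-type and 4072 and 2683 in Pax6 homozygous embryos. Every hindbrain array lay above every forebrain array, and within hindbrain the mutant pair was the lower one, without overlap. The hindbrain means were 5129 ± 8.27 and 3378 ± 982, so wild-type was 1.52 times the Pax6 homozygous mean, and the spread came almost entirely from the Pax6 homozygous pair.

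The Ncam1 log2 genotype change was -0.63 ± 0.35 in hindbrain (adjusted p = 0.989) and 0.23 ± 0.35 in forebrain (adjusted p = 1). The difference between parts was 0.86 ± 0.50, with a 95% interval from -0.27 to 2.00, and did not pass. The forebrain estimate rested on Pax6 homozygous forebrain replicate 2, without which it was -0.28 and the difference 0.36, and without replicate 1 of that group they were 0.73 and 1.37. The hindbrain change was -0.33 without Pax6 homozygous hindbrain replicate 2 and -0.93 without replicate 1. Another Ncam1 probe set, rc_AI137246_s_at, gave values from -669 to -0.1, above noise on no array, and was not tested.

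L1cam, a neuronal adhesion molecule of growing axons, was read by X59149_at. Its intensities were 1830.0 and 6.5 in wild-type forebrain, 755 and 1103 in the Pax6 homozygous forebrain, 527 and 1595 in wild-type hindbrain and 1798 and 1186 in Pax6 homozygous hindbrain. The arrays of a genotype differed more from each other than the genotypes did, and 1 array of each wild-type group was not above noise. The forebrain log2 change of 1.65 ± 1.39 (adjusted p = 1) came from wild-type replicate 2, which was raised to a floor of 45.9. It was -0.064 with a floor at the pooled median and -1.004 without that array. The means of the deposited intensities had a Pax6 homozygous to wild-type ratio of 1.01 in forebrain and 1.41 in hindbrain. The hindbrain change was 0.67 ± 1.39, and the interval of the difference between parts, from -3.49 to 5.46, leaves its direction unsettled.

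Epha7 is a receptor for the GPI-anchored ephrin-A ligands. Its probe set U21954_at had intensities of 872 and 604 in wild-type forebrain and of 1053 and 1049 in the Pax6 homozygous forebrain, with both Pax6 homozygous arrays higher. In hindbrain it had 838 and 797 in wild-type and 835 and 1137 in Pax6 homozygous embryos, and the arrays overlapped. The log2 change was 0.53 ± 0.35 in forebrain and 0.25 ± 0.35 in hindbrain (adjusted p = 1 in both). Without wild-type forebrain replicate 2 the forebrain change was 0.27, and 0.80 without replicate 1. Without Pax6 homozygous hindbrain replicate 2 the hindbrain change was 0.031, and 0.48 without replicate 1. The difference between parts was 0.28 ± 0.50, with an interval from -0.86 to 1.42, and ran from 0.016 to 0.55 with 1 array left out (lowest without wild-type forebrain replicate 2). Among the 7 probe sets this was the smallest difference between parts in the genotype change.

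Ephb3 is a receptor for the transmembrane ephrin-B ligands. Its probe set A44407cds_at was dim, at 995 and 344 in wild-type forebrain, 546 and 599 in the Pax6 homozygous forebrain, 530 and 542 in wild-type hindbrain and 357 and 308 in Pax6 homozygous hindbrain. On 3 of the 8 arrays it was not above noise. Both Pax6 homozygous hindbrain arrays lay below both wild-type ones, and the forebrain arrays overlapped. The log2 change was -0.69 ± 0.55 in hindbrain (adjusted p = 0.991) and -0.03 ± 0.55 in forebrain (adjusted p = 1). The hindbrain change was -0.11 when the floor was the pooled median. The difference between parts, 0.66 ± 0.78, turned to -0.19 when the floor was the pooled median and to -0.11 without wild-type forebrain replicate 2.

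In forebrain the arrays of the genotypes did not overlap for 3 of 7 member probe sets (Cdh22, Epha7 and 1 of Cdh2), and for 23% of all tested in either direction. In hindbrain they did not overlap for 4 of 7 (Cdh22 with higher values, and Ncam1, Ephb3 and 1 of Cdh2 with lower values), and for 34.5% of all tested. In the wild-type forebrain pair replicate 1 read above replicate 2 for 7 of 7 member probe sets, and for 61.6% of all tested. The median member log2 change was 0.41 in forebrain, -0.18 in hindbrain and 0.66 for forebrain minus hindbrain. The corresponding medians over all tested probe sets were 0.01, 0.04 and -0.02. The 0.66 is the Ephb3 value, which turned to -0.19 under a floor at the pooled median, where that of L1cam turned to -0.74. Both Cdh2 probe sets come from the same sequence record, and the members were chosen with earlier results of these data known. The medians are thus a description and not a test.

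Markers of other cells moved in the same arrays. Between wild-type and Pax6 homozygous forebrain the summed intensity of 17 neural progenitor genes went from between 140586 and 143284 to between 103091 and 124794. Of the 17, 16 were above noise on both arrays in each forebrain group. The genes did not move together. Id3 went from 30765 ± 8098 to 17268 ± 7758, Ptn from 12138 ± 1640 to 7489 ± 5652 and Fabp7 from 3526 ± 578 to 500 ± 40.1. Nes and Dll1 had higher means in the Pax6 homozygous forebrain (12719 against 12071, and 1740 against 1477). The sum of 10 blood genes went from between 180259 and 193133 to between 150183 and 153799, and that of 13 lens genes from between 11276 and 11798 to between 4204 and 5664. The sum of the 9 forebrain and midbrain genes was higher in the Pax6 homozygous forebrain, at 18691 to 19583, with Nkx2-1, a ventral forebrain gene, at 4144 ± 188 and 7019 ± 397. The sum of the 10 hindbrain genes was also higher there, at 2429 to 2652. Of these 10, only 1 was above noise on both wild-type forebrain arrays and 2 on both Pax6 homozygous forebrain arrays. Not every gene of the forebrain list rose. Lhx2 (8482 ± 296 and 7949 ± 255) and Dlx5 (1024 ± 40.8 and 713 ± 48.6) were lower in the Pax6 homozygous forebrain. The sum of 18 head mesenchyme genes overlapped between genotypes, at 110705 to 113252 and 105739 to 118885. Their part in the forebrain readings of Cdh22, Cdh2 and Epha7 was not tested. In bulk tissue fewer cells of a type and less RNA per cell cannot be told apart.

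The clearest differences among the members were between brain parts. Over both genotypes 2 of 7 member probe sets passed, Cdh22 as higher in forebrain and Ncam1 as higher in hindbrain. Of all tested probe sets 0.289% passed as higher in forebrain and 1.22% as higher in hindbrain. The same members were those whose 4 forebrain and 4 hindbrain arrays did not overlap, as was true of 2.28% of all tested as higher in forebrain and of 4.37% as higher in hindbrain.

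Ncam1 was higher in hindbrain, with a forebrain minus hindbrain log2 difference of -1.49 ± 0.25 (limma adjusted p = 0.0218). In wild-type embryos the hindbrain mean was 3.79 times the forebrain mean, and in Pax6 homozygous embryos 2.01 times. Tested within a genotype, comparisons added after the values were seen, the difference was -1.92 ± 0.35 in wild-type (adjusted p = 0.0567) and -1.06 ± 0.35 in Pax6 homozygous embryos (adjusted p = 0.505). The call over both genotypes did not hold without any one of 6 arrays (either hindbrain replicate of either genotype, or replicate 1 or 2 of wild-type forebrain, with adjusted p from 0.0607 to 0.115), although the estimate stayed between -1.74 and -1.24 over all 8 omissions. Raising the floor to the pooled median also ended it (0.121), as did dropping the filter (0.144) or the intensity trend (0.0913).

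Cdh22 was higher in forebrain by 0.68 ± 0.12 on the log2 scale (limma adjusted p = 0.0256). The forebrain mean was 1.33 times the hindbrain mean in wild-type and 1.95 times in Pax6 homozygous embryos. Within a genotype the difference was 0.40 ± 0.17 in wild-type (adjusted p = 0.797) and 0.96 ± 0.17 in Pax6 homozygous embryos (adjusted p = 0.0603). Within wild-type 0.204% of all tested probe sets passed as higher in forebrain and 0.578% as higher in hindbrain, and within Pax6 homozygous embryos 0.136% and 0.323%. The call over both genotypes held without wild-type forebrain replicate 2 and ended without any other single array (adjusted p from 0.0706 to 0.144), with the estimate between 0.62 and 0.74. It also ended without an intensity trend (0.126).

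**Figure D3:**
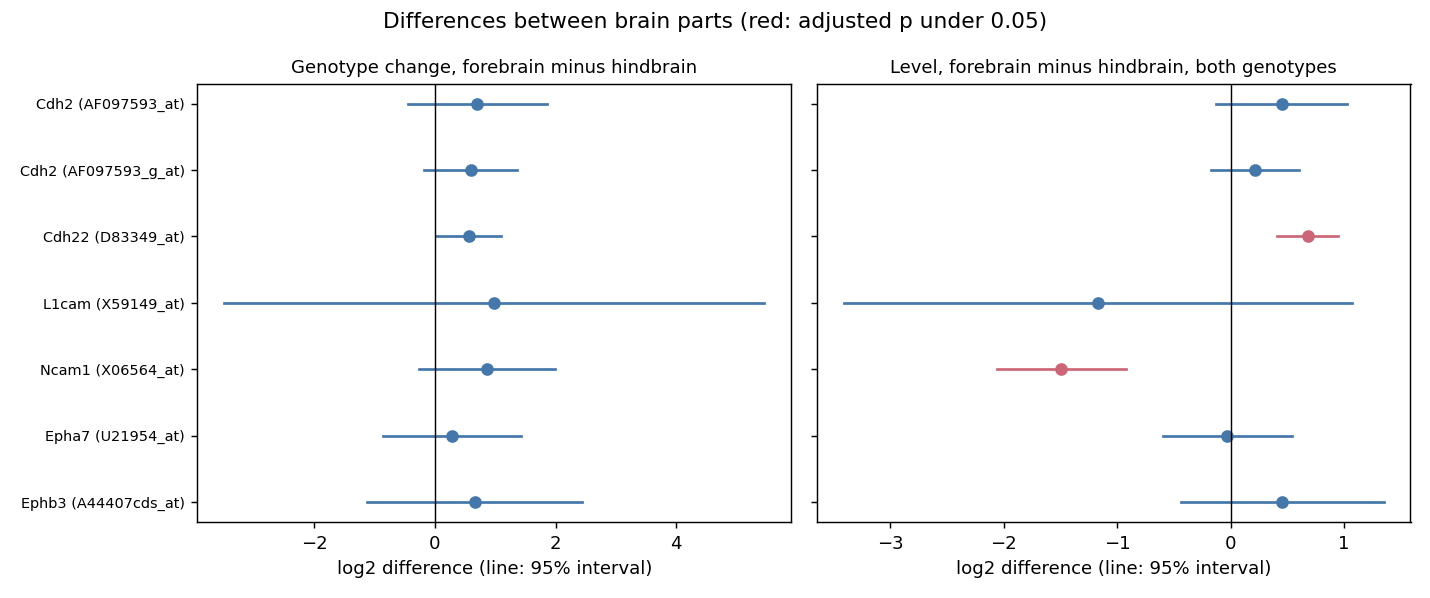
Log2 differences between brain parts for each tested probe set, with 95% intervals before adjustment as lines. The left panel gives the genotype change in forebrain minus that in hindbrain, where 7 of 7 points lie above 0 and 0 passed. Of these, the L1cam and Ephb3 points move below 0 when the floor is the pooled median. The right panel gives forebrain minus hindbrain over both genotypes, where Cdh22 (0.68) and Ncam1 (-1.49), in red, passed.

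The order of the 4 group means was read from the arrays, with neighbours called apart where their arrays did not overlap and the gap exceeded the pooled SD. This rule is a description and not a test, and how many of all probe sets meet it was not counted. By genotype alone, arrays did not overlap for 23% of all tested probe sets in forebrain and 34.5% in hindbrain. For Cdh22 all 4 levels were apart by this rule, in the order Pax6 homozygous forebrain, wild-type forebrain, Pax6 homozygous hindbrain, wild-type hindbrain. The hindbrain levels were narrowly apart, with a gap of 652.5 against a pooled SD of 621. Neither genotype step of Cdh22 passed in limma (adjusted p = 0.902 in forebrain and 0.991 in hindbrain). For Ncam1 wild-type hindbrain stood above Pax6 homozygous hindbrain, which stood above both forebrain groups, and the forebrain groups were not apart. For Cdh2 the probe set AF097593_g_at had Pax6 homozygous forebrain apart from the other three, at 3320 ± 384, and AF097593_at had no neighbours apart. L1cam, Epha7 and Ephb3 had no neighbours apart either. By their means L1cam and Ncam1 were highest in a hindbrain group and the other members in a forebrain group. The highest group was apart from the next, by the rule above, only for Cdh22, Ncam1 and 1 of the Cdh2 probe sets.

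Over the 8 arrays, the probe sets whose pattern was most like that of Ncam1 were of Crmp1, Cadps and Ina, with Pearson r of 0.981, 0.978 and 0.962 among 3103 candidates above noise on all arrays. Crmp1 is a neuronal mediator of semaphorin signals, Cadps primes dense-core vesicles for release, and Ina is the neuronal intermediate filament alpha-internexin. These r describe 8 arrays that share tissue and genotype. The Ina probe set rc_AA875659_s_at had hindbrain means of 16498 ± 1090.5 for wild-type and 9753 ± 777 for Pax6 homozygous embryos, and forebrain means of 3764 ± 274 and 4521 ± 549. Its genotype change was -0.76 ± 0.17 in hindbrain and 0.26 ± 0.17 in forebrain, and neither passed (adjusted p = 0.894 and 1).

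**Figure D4:**
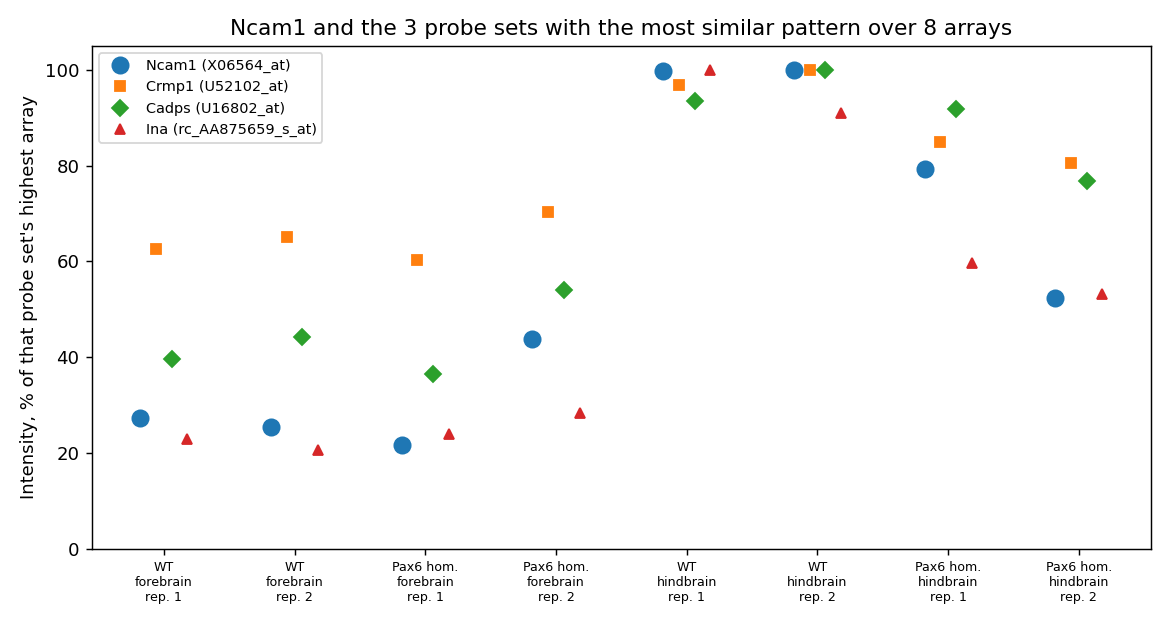
Intensity of Ncam1 and of the 3 probe sets with the most similar pattern (y axis, as a percentage of the highest array of each probe set) on the 8 arrays. All 4 probe sets were higher on each hindbrain array than on each forebrain array, and lower on both Pax6 homozygous than on both wild-type hindbrain arrays. Of all tested probe sets, 4.37% were higher on each hindbrain array, and 34.5% did not overlap between genotypes in hindbrain, in either direction. Cadps was narrowly apart there (2574 against 2620). The 3 probe sets were picked for likeness to Ncam1 on these same arrays, so the shared order follows largely from the choice.

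The summed intensity of 18 neuronal marker genes was, like Ncam1, higher in hindbrain and lower in Pax6 homozygous than in wild-type hindbrain, but in forebrain it was lower in the Pax6 homozygous pair, where the Ncam1 mean was higher. It was between 113185 and 126297 in wild-type hindbrain, between 92033 and 95850 in Pax6 homozygous hindbrain, between 59552 and 59769 in wild-type forebrain and between 54667 and 58515 in Pax6 homozygous forebrain. Of the 18, 13 were above noise on both arrays in each hindbrain group and 12 in each forebrain group. Bright genes weigh most in the sum, and the genes did not move together in hindbrain. Ina was lower in the Pax6 homozygous group (18277 ± 523 to 9982 ± 486). Snap25 (1973 ± 430 to 2263 ± 521) and Syt4 (590 ± 56.1 to 680 ± 155) had higher means there. The list holds Crmp1 and Ina, genes picked above for their likeness to Ncam1, so the likeness of the sum is partly built in. Ina entered this sum through M73049_at, with forebrain means of 5903 ± 519 (wild-type) and 4386 ± 1166 (mutant). The Ina probe set above, rc_AA875659_s_at, moved the opposite way there, and the sum was not recomputed with it. Uchl1 was also lower in the mutant forebrain (13991 ± 155 to 11749 ± 1741). Nefl (2077 ± 264 to 2910 ± 61.4) and Gap43 (5035 ± 84.9 to 5514 ± 248) were higher. In hindbrain the sums of neural progenitor genes (159024 to 177660 against 144852 to 147795) and of blood genes (158380 to 172006 against 142554 to 145166) were also lower in the Pax6 homozygous group. So were those of head mesenchyme genes (120471 to 126231 against 107263 to 119561) and of the hindbrain genes (8963 to 9155 against 5699.6 to 8246). In neither list did the genes move together. Slc18a3 (1849 ± 539 to 314 ± 963) and Isl1 (2951 ± 204 to 2215 ± 693) of the hindbrain list had lower means, and Hoxd3 (773 ± 101 to 1108 ± 611) a higher one. Of the mesenchyme genes Col5a1 (8197 ± 1690 to 5850 ± 610) was lower and Col5a2 (6989 ± 639 to 8321 ± 155) higher. Among the progenitor genes Fabp7 went from 15840 ± 1031 to 1197 ± 10.3 in hindbrain, while Ptn (15754 ± 1373 to 19294 ± 204) and Id2 (8957 ± 1217 to 11780 ± 1822.5) were higher in the Pax6 homozygous group. The sum of 20 muscle genes also differed between parts, at 6351 to 10834 in wild-type forebrain, 34792 to 39146 in wild-type hindbrain, 5822 to 10449 in Pax6 homozygous forebrain and 32505 to 38641 in Pax6 homozygous hindbrain. What part these marker differences have in the Ncam1 and Ephb3 values was not tested.

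For Cdh22 the most similar patterns were those of the deacetylase Hdac6, the replication factor Rfc4 and the vesicle protein Tmed2 (r from 0.903 to 0.931), and for Cdh2 of Mcm5, Arpc1b and Nmt1 (0.877 to 0.894). For Epha7 they were of Rnf4, Nras and Mapre1 (0.946 to 0.965), for L1cam of Zfp423, Rps4x-ps9 and Ncbp2 (0.947 to 0.957), and for Ephb3 of Rfc1, Sorbs2 and the Cdh2 probe set AF097593_at (0.898 to 0.930).

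The wider families were followed in 7 lists of genes, 83 of them tested with 1 probe set each. In the genotype comparisons 0 of the 83 passed in forebrain, in hindbrain or in the difference between parts (limma), and 3 in each had an unadjusted p under 0.05, where 172, 264 and 112 of all 5881 did. Between brain parts 3 passed, as did 89 of all 5881. They were Cdh22, Ncam1 and Ptprz1, a receptor phosphatase that binds Ncam1 and L1-type molecules and was higher in forebrain (2432 ± 250.03 against 443 ± 127 in wild-type, log2 difference 2.20 ± 0.25, adjusted p = 0.00253).

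Among 6 tested genes of the cadherin superfamily, 6 had a positive genotype change in forebrain (51.2% of all tested probe sets) and 1 in hindbrain (54.3%). For 6 the change was more positive in forebrain (48%). The list median was 0.44 in forebrain and -0.11 in hindbrain. Cdh2 and Cdh22 are 2 of the 6. Of the others, Cdh6 and Fat2 were above noise on no wild-type forebrain array, and Fat1 and Celsr3 had hindbrain changes of -0.03 ± 0.38 and -0.05 ± 0.25. Cdh6, a type II cadherin, had a hindbrain change of -1.34 ± 1.17 that became 0.24 under a floor at the pooled median. Celsr3, a large cadherin needed for axon tracts, read 1736 ± 231 in forebrain and 2562 ± 392 in hindbrain of wild-type embryos (region difference -0.50 ± 0.18, adjusted p = 0.417). Among 13 catenins and other cadherin partners, 10 had a positive change in forebrain and 6 in hindbrain, with medians of 0.06 and -0.06. Adam10, a protease that sheds N-cadherin, had the smallest p of this list in forebrain (0.86 ± 0.33, adjusted p = 1, from 0.41 to 1.31 with 1 array left out), and the small GTPase Cdc42 in hindbrain (-0.33 ± 0.13, adjusted p = 0.989).

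Among 4 tested Eph receptors, 2 had a positive change in forebrain and 2 in hindbrain. Ephb1 had changes of 0.20 ± 0.57 and -0.54 ± 0.57, and the forebrain estimate turned negative without wild-type forebrain replicate 2 or Pax6 homozygous forebrain replicate 1. The 2 tested ephrins were Efna1 and Efna5, ephrin-A ligands of the receptor class to which Epha7 belongs. Efna1 read 641 ± 205 (wild-type) and 922 ± 76.6 (Pax6 homozygous) in forebrain and 661 ± 50.1 and 932 ± 129 in hindbrain. Its log2 changes were 0.56 ± 0.38 and 0.49 ± 0.38, with a difference between parts of 0.07 ± 0.53, and none passed. Among 15 intracellular effectors of Eph signalling, 11 had a positive change in forebrain and 11 in hindbrain, with medians of 0.13 and 0.18.

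**Figure D5:**
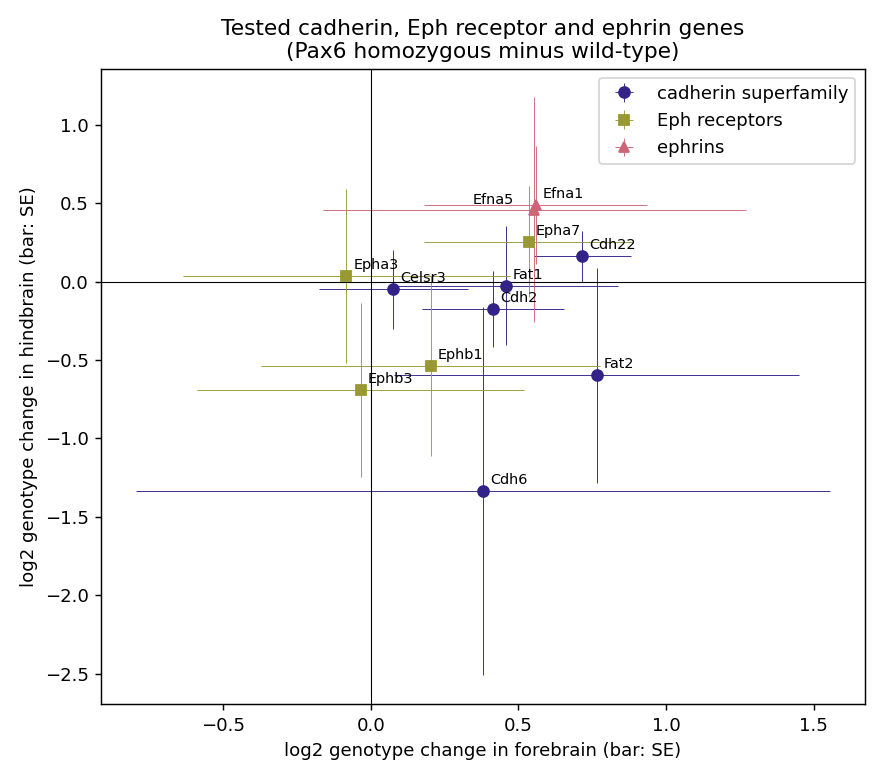
Log2 genotype change in forebrain (x axis) against that in hindbrain (y axis) for the tested cadherin superfamily genes (circles), Eph receptors (squares) and ephrins (triangles), with standard errors as bars. All 6 cadherin superfamily points lie right of 0 (51.2% of all tested probe sets) and 5 of them lie below 0 on the y axis. Of these 5, Cdh6 moves above 0 when the floor is the pooled median, and Fat1 and Celsr3 lie at -0.03 ± 0.38 and -0.05 ± 0.25. No gene shown passed in either part.

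Among 17 tested immunoglobulin-type adhesion molecules, 9 had a positive change in forebrain and 10 in hindbrain, with medians of 0.06 and 0.07. Nrcam, an L1-family molecule with the smallest p of the list in forebrain, read 1901 ± 616 in the forebrain of wild-type embryos and 2437 ± 122 in that of Pax6 homozygous ones, a log2 change of 0.40 ± 0.31 (adjusted p = 1) that ran from 0.060 to 0.73 with 1 array left out. Of the 17, 13 were lower in forebrain than in hindbrain, with a median difference of -0.30 against -0.02 over all tested probe sets. Cadm1, a synaptic adhesion molecule, had a difference of -1.63 ± 0.40 (adjusted p = 0.123), but its probe set was above noise on neither wild-type forebrain array.

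Among 26 partners and modifiers of Ncam1 and L1cam, 14 had a positive change in forebrain and 15 in hindbrain, with medians of 0.04 and 0.05. Gap43, a growth cone protein that acts downstream of Ncam1 in neurite growth, had the smallest p in hindbrain, with hindbrain means of 9884 ± 2133 for wild-type and 5970.2 ± 328 for Pax6 homozygous embryos (-0.71 ± 0.19, adjusted p = 0.989). In forebrain it was at 5035 ± 84.9 and 5514 ± 248. Its genotype change in forebrain minus that in hindbrain was 0.84 ± 0.27 (adjusted p = 1), beside 0.86 ± 0.50 for Ncam1. Fgfr2, a fibroblast growth factor receptor, had the smallest p in forebrain (1.27 ± 0.44, adjusted p = 1, from 0.68 to 1.86 with 1 array left out). Of the 26, 22 were lower in forebrain than in hindbrain, as were 13 of the 15 Eph effectors (median difference -0.26). Of all tested probe sets 46.8% were higher in forebrain.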

How the data were processed

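Each deposited value is a linear intensity of 1 probe set on 1 array, made by the authors with software that the labels do not name. Values included negatives (18.3% to 22.3% of each array) and were already at a common trimmed mean, which was kept. The members and gene lists were chosen with earlier results of these data known. Values below the pooled 25th percentile (45.9) were raised to it before log2. Comparisons between parts within a genotype were added after the values were seen. A probe set was tested if at least 2 arrays exceeded the pooled 40th percentile (255). The 4 group means were fitted over all 8 arrays (limma 3.58.1 under R 4.3.3, eBayes with an intensity trend), checked on simulated data, and p-values are two-sided. A genotype change is Pax6 homozygous minus wild-type, and an adjusted p of 1 is rounded. Lists used the brightest tested probe set of a gene. The naming rule took all members, the 2 genes of smallest p per list and comparison (the first non-member of these may be printed), Pax6 and the 3 most similar patterns per member. Fabp7, Ptn, Id2, Id3, Nes, Dll1, Dlx5, Uchl1, Nefl, Fat1 and Fat2 were named after their values were seen. So were Snap25, Syt4, Slc18a3, Isl1, Hoxd3, Col5a1 and Col5a2. The planned comparison of protein sequences was not run. Alternatives were the floor, an asinh transform, the filter, quantile normalization, the trend, the replicate number, the arrays of 1 part alone and each array left out.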

Additional observations from a re-analysis of the deposited data

How the results depend on the processing

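No member passed in a genotype comparison under any alternative (lowest adjusted p 0.134 in forebrain, 0.577 in hindbrain, 0.948 for the difference between parts, 0.170 over both parts). The number of all probe sets that passed moved. Under a floor at the pooled median it was 3 in forebrain, 15 in hindbrain, 8 for the difference between parts and 10 over both parts, against 1, 1, 0 and 2. Without a filter it was 0, 22, 13 and 19, and without an intensity trend 0 in forebrain, 5 in hindbrain and 4 for the difference. With the arrays of 1 part alone it was 0 in forebrain and 2 in hindbrain. With 1 array left out it was 0 to 5 in forebrain, 1 to 3 in hindbrain, 0 to 1 for the difference and 1 to 5 over both parts. Between parts, where 89 passed, it was then 37 to 82, and 23 to 49 within wild-type (46) and 14 to 32 within Pax6 homozygous embryos (27).

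The replicate numbers are not said to mark a shared litter or day, and deviations of same-numbered arrays correlated between groups at 0.275 to 0.465. With the replicate block 2 probe sets passed in hindbrain, 139 between parts and 65 within Pax6 homozygous embryos. Under this block both Ncam1 and Cdh22 stayed past the threshold between parts, and Cdh22 passed within Pax6 homozygous embryos (adjusted p = 0.0294). Over all alternatives, the only members that passed between parts within a genotype were Ncam1 and L1cam in wild-type and Cdh22 in Pax6 homozygous embryos. These alternatives include fits that leave 1 array in a group. The L1cam value in wild-type forebrain replicate 2, at 6.5, was raised to the floor.

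Under a floor at the pooled median the log2 value changed sign for L1cam in forebrain (-0.064), in the difference of genotype changes (-0.74) and between parts in wild-type (0.057), for Ephb3 in the difference (-0.19), for Cdh6 in hindbrain (0.24) and for Epha3 between parts (0.088). Quantile normalization turned Epha7 between parts to 0.095, and kept 23 of 28 member group levels within 1 SD.

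Leaving out 1 array also turned dim or small values. In forebrain the ranges were -0.80 to 0.73 for Ephb3, -0.30 to 0.71 for Ephb1, -0.23 to 0.81 for Cdh2 (AF097593_at), -1.004 to 4.31 for L1cam and -0.28 to 0.73 for Ncam1. In hindbrain they were -0.13 to 1.47 for L1cam, -1.27 to 0.20 for Ephb1, -0.36 to 0.0088 for Cdh2 (AF097593_g_at) and -3.29 to 0.62 for Cdh6. For the difference they were -0.26 to 0.40 for Efna1, -1.68 to 3.64 for L1cam and -0.11 to 1.42 for Ephb3. Over both parts they were -0.32 to 0.20 for Cdh2 (AF097593_at), -0.75 to 0.021 for Ephb3, -0.46 to 0.049 for Ncam1 and -0.17 to 2.49 for L1cam. Between parts they were -2.50 to 0.16 for L1cam, -0.16 to 0.10 for Epha7 and -0.46 to 0.076 for Epha3. Between parts within wild-type they were -0.42 to 0.62 and -0.26 to 0.11 for the Cdh2 probe sets AF097593_at and AF097593_g_at, -0.64 to 0.89 for Ephb3, -4.32 to 0.997 for L1cam and -0.44 to 0.094 for Epha7, and within Pax6 homozygous embryos -0.11 to 0.33 for Epha7. The causes were not tested. L1cam was above noise on 6 of 8 arrays and Ephb3 on 5.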
